A study of Mus musculus with 2 samples.

Results

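Bone and cartilage cells are set apart by a small set of transcription factors, and 10 of them, Runx2, Runx3, Sp7, Dlx3, Dlx5, Dlx6, Mef2c, Sox9, Sox5 and Sox6, were followed here out of 28380 genes in the 2 expression tables. They were chosen by name, and all 10 were present in both tables. Their levels were described over 15 subtypes of stromal cells, osteoblasts, osteocytes and chondrocytes, gated on marker genes that include none of the 10. The cells came from femur and tibia of C57BL/6 mice at postnatal day 30, after depletion of cells carrying CD45, CD117 or lineage markers, and were profiled by BD Rhapsody, a bead-based single-cell method that counts unique molecular identifiers (UMIs). The Control library came from mice with the genotype Dach1OE +/f, which carry the floxed transgene without Cre. The Dach1OE library came from mice with the genotype Apj CreERT2 - Dach1OE +/f, where a tamoxifen-activated Cre driven by Apj (Aplnr) is meant to turn the transgene on in endothelial cells (ECs). Both groups had received tamoxifen shortly after birth, and each library pooled male and female animals. The epiphysis had been removed before digestion with collagenase, so the chondrocytes are those that stayed on the bone. With 1 library per group there is no test between the groups, and all intervals are 95% intervals that cover counting error only.

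Runx2 starts the osteoblast lineage from mesenchymal precursors and Sp7 (osterix) acts downstream of it, while Dlx3, Dlx5 and Dlx6 are homeobox factors that act on genes of bone formation and Mef2c acts in chondrocyte hypertrophy and in the osteocyte. In the growth plate Sox9 sets chondrocyte identity, Sox5 and Sox6 work with it on cartilage matrix genes, and Runx2 and Runx3 drive the maturation of chondrocytes. Growth plate cells pass in order through upper, columnar, prehypertrophic and hypertrophic states before bone replaces the cartilage.

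Cells with 500 to 6000 genes and under 25% mitochondrial UMIs were kept, 26466 of 28720 in Control and 29317 of 32028 in Dach1OE. Dach1 in ECs was 4.54 and 205 UMIs per 1000000 UMIs of the class (CPM) in Control and Dach1OE, a log2 ratio of 5.50, as the labels have it, and it was 3.88 and 4.72 CPM in bone stromal cells and 2.73 and 3.48 CPM in chondrocytes. The gates held 5215 and 4250 bone stromal cells and 3727 and 5195 chondrocytes. Among the bone stromal cells, diaphyseal stromal cells (dpMSC, marked by Lepr, Adipoq and Cxcl12) made up 38.0% and 18.1% in Control and Dach1OE, and osteoblasts (OB) with high Bglap made up 22.4% and 35.8%. Median depth was lowest in dpMSC, at 2626 and 2696 UMIs, and highest in prehypertrophic (12638 and 11984 UMIs) and hypertrophic chondrocytes (12685 and 11693 UMIs). Of the barcodes kept, 879 occurred in both libraries. Of the 534 such pairs gated in both, 18.4% fell in the same class, where the class shares alone would give 16.4%, and leaving these cells out moved the pooled log2 ratios of the members by up to 0.04.

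Runx2 and Runx3, a pair of paralogs, ran in opposite directions along the cartilage sequence, so their promoters are shown. Runx2 lies at chr17:44495987-44814797 on the minus strand of GRCm38 and Runx3 at chr4:135120652-135177990 on the plus strand. The windows are from RefSeq (GRCm38.p6), span 300 bases around a transcription start and read 5′ to 3′ along the gene, and capitals mark TGTGGT or its reverse complement ACCACA, a core that Runx proteins bind.
Runx2 promoter (minus strand), chr17:44814578-44814877: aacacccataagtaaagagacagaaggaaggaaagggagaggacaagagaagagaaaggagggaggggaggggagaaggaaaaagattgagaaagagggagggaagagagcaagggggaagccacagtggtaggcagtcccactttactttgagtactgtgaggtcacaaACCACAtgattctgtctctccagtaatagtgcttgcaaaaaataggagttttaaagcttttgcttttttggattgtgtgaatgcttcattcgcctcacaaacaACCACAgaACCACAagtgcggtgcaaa
Runx3 upstream promoter (plus strand), chr4:135120395-135120694: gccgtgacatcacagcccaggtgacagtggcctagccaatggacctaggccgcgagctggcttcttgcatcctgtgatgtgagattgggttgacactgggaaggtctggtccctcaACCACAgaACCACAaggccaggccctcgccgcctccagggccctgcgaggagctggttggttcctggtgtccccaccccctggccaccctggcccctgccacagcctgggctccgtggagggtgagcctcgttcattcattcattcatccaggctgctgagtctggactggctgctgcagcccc
Runx3 downstream promoter (plus strand), chr4:135152295-135152594: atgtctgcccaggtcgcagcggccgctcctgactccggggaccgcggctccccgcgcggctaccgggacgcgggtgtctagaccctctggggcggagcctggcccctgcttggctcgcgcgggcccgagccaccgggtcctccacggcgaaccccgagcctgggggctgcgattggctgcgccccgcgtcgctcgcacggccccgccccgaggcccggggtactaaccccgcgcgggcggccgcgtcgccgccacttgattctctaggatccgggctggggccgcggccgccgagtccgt
The Runx2 window held 3 matches over both strands, the upstream Runx3 window 2 and the downstream Runx3 window 0. For Runx2 the only window at hand was at the 5′ end of the gene, so the match counts of the paralogs cover unlike sets of windows. RefSeq windows were at hand for 5 of the 10 members (Runx2, Runx3, Mef2c, Sox5 and Sox6), and 4 of their 13 windows held a match, beside 16.8% of all 32851 windows. A match describes the letters and is not a bound site.

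Runx2 was found in every skeletal subtype. It was highest in Wif1-positive metaphyseal stromal cells (mpMSC A), in septoclasts and at the end of the cartilage sequence. In mpMSC A it was 525 CPM (486 to 566, 674 UMIs) in Control and 516 CPM (473 to 562, 532 UMIs) in Dach1OE. Septoclasts (SC, marked by Mmp9) held 536 and 432 CPM, and late hypertrophic chondrocytes held 502 and 467 CPM. The intervals of these 3 subtypes overlapped in both libraries and stood above the next, the Aspn- and Postn-positive mpMSC B, at 319.9 and 318 CPM. Runx2 was lower from step to step of the osteoblast sequence. It was 274 and 252 CPM in OB with low Bglap, 187 and 177 CPM in OB with high Bglap and 167 and 154 CPM in osteocytes (OCY, marked by Dmp1, Mepe and Phex), the last 2 overlapping in both libraries. Among chondrocytes it was 132 and 128 CPM in upper cells and 202 and 191 CPM in hypertrophic cells, a shallow gradient before the late gate. ECs held 20.1 and 20.3 CPM. Runx2 spans 319 kb and intronic reads were counted, and their part in its levels was not tested.

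Runx3, which works beside Runx2 in cartilage, ran the other way there. It was 254 CPM (235 to 273, 714 UMIs) in upper chondrocytes of Control and 249 CPM (236 to 263, 1422 UMIs) in those of Dach1OE, followed by 225 and 247 CPM in columnar, 138 and 162 CPM in prehypertrophic and 80.4 and 83.5 CPM in hypertrophic cells. In OB with high Bglap it was 9.62 and 9.08 CPM, the lowest of the 15 subtypes, and in ECs 3.81 and 4.42 CPM. Runx3 was thus lower toward the end of the cartilage sequence, where Runx2 was higher. In osteoblasts both were lower with high than with low Bglap, Runx2 by log2 differences of -0.55 and -0.51 and Runx3 of -1.42 and -1.38. Leukocytes held 115 and 115 CPM of Runx3. The 8 leukocyte markers summed to 7.53 and 7.07 CPM in columnar chondrocytes and 5349 and 5879 CPM in leukocytes, and their part in the Runx3 values was not tested. Both Runx genes overlap genes on the other strand in the annotation (Runx2 with Supt3, Runx2os1 and Runx2os2, Runx3 with Gm16224). The strand used in counting is not given in the sources used here, so such reads cannot be told apart.

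Sp7 (chr15:102356606-102367182), the zinc finger factor that commits cells to bone formation, was highest by mean level in OB with low Bglap. Next came OCY, whose intervals overlapped with those of OB with low Bglap and of mpMSC A. Sp7 was not limited to these cells. OB with low Bglap held 467 CPM (443 to 491, 1467 UMIs) in Control and 449 CPM (431 to 468, 2227 UMIs) in Dach1OE, OCY 414 and 409 CPM, and OB with high Bglap 343 and 365 CPM. The metaphyseal gates were near the OB with high Bglap, with 363 and 348 CPM in mpMSC A and 363 and 329.8 CPM in mpMSC B, whereas dpMSC held 54.9 and 66.5 CPM, the lowest of the 15 subtypes. Chondrocytes also carried Sp7, from 175 and 169 CPM in upper to 282 and 272 CPM in prehypertrophic cells. In cells thinned to 2000 UMIs each, 90.1% and 86.4% of chondrocytes with an Sp7 UMI also had a Sox9 UMI, beside 87.2% and 84.3% of all chondrocytes in Control and Dach1OE. For every 100 UMIs of Bglap, the osteocalcin gene, there were 321 of Sp7 in prehypertrophic chondrocytes and 16.0 in ECs. In OB there were 1.83 with high Bglap and 19.4 with low Bglap. The ratio in cartilage thus stood above those of both OB gates and of ECs, while OB with low Bglap and ECs were close. The source of the Sp7 UMIs was not tested.

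Dlx3 (chr11:95120119-95125296), which acts in osteoblast maturation, was concentrated in bone-forming cells. OCY held 255 CPM (228 to 284, 319 UMIs) in Control and 212 CPM (189.6 to 237, 315 UMIs) in Dach1OE, above OB with low Bglap (171 and 159 CPM) and OB with high Bglap (168 and 173 CPM), without overlap of the intervals. The step down to cycling bone stromal cells, at 69.7 and 72.7 CPM, was as clear. In dpMSC it was 4.54 and 6.29 CPM, and in prehypertrophic chondrocytes 2.96 and 2.92 CPM, against 1.42 and 1.78 CPM in ECs, with intervals that overlapped in Dach1OE and not in Control.

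Dlx5 (chr6:6877805-6882085) and Dlx6 (chr6:6863334-6868568) are neighbours on opposite strands of chromosome 6 and both act early in the osteoblast lineage. Dlx5 was 377 CPM (344 to 412, 484 UMIs) in mpMSC A of Control and 377 CPM (341 to 417, 389 UMIs) in that of Dach1OE, 362 and 308 CPM in mpMSC B, 106 and 112 CPM in OB with high Bglap and 51.9 and 41.1 CPM in OCY. Dlx6 was highest in mpMSC B, at 168 CPM (144 to 196) and 147 CPM (122 to 175), which overlapped with mpMSC A, and was 20.8 and 24.3 CPM in OCY. The neighbours parted in SC and in cartilage. In SC Dlx5 was 338 and 311 CPM and Dlx6 40.5 and 27.2 CPM. Dlx5 was 141 and 131 CPM in columnar and 83.7 and 96.0 CPM in hypertrophic cells, whereas Dlx6 was 14.0 and 13.0 CPM and then 3.36 and 4.58 CPM. Dlx6 overlaps the antisense gene Dlx6os1, and reads of the pair cannot be told apart without strand.

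Mef2c (chr13:83504034-83667080) was highest in OCY among the bone gates and in hypertrophic cells among the cartilage gates. In OCY it was 931 CPM (878 to 986, 1165 UMIs) in Control and 999 CPM (949 to 1051, 1482 UMIs) in Dach1OE, against 371 and 401 CPM in OB with high Bglap, a log2 difference of 1.33 (1.23 to 1.42) and 1.32 (1.23 to 1.40). In dpMSC it was 39.6 and 52.1 CPM. Through the growth plate it went from 98.4 and 107 CPM in upper cells to 562 and 547 CPM in prehypertrophic and 858 and 799 CPM in hypertrophic cells, with no overlap between the 3. The hypertrophic gate also held Ihh, a prehypertrophic gating marker, at 1041 and 1038 CPM, above the 718 and 675 CPM of prehypertrophic cells. Its Mmp13, a hypertrophic marker, was 341 and 479 CPM, against 21510 and 19368 CPM in the late hypertrophic gate. Mef2c was lower again in the late hypertrophic gate, at 285 and 192 CPM. Vessel cells express Mef2c as well, with 171 and 214 CPM in ECs. The 6 EC markers summed to 69.5 and 78.2 CPM in OCY and 6844 and 7179 CPM in ECs, and their part in the Mef2c values was not tested.

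Sox9 (chr11:112782224-112787760), the factor that defines chondrocytes, was 1839 CPM (1818 to 1861, 29185 UMIs) in prehypertrophic chondrocytes of Control and 1702 CPM (1682 to 1721, 29183 UMIs) in those of Dach1OE. Columnar cells held 1490.5 and 1322 CPM, hypertrophic cells 1475 and 1269 CPM and upper cells 1398 and 1304 CPM, and cycling chondrocytes (marked by Mki67 and Top2a) held 1091 and 994 CPM. Prehypertrophic cells thus stood above, and cycling cells below, the 3 gates between them, beyond counting error. In bone, mpMSC B held 127 and 124 CPM and mpMSC A 88.0 and 88.2 CPM, whereas OB with high Bglap held 11.2 and 12.8 CPM, near the 10.2 and 15.1 CPM of ECs. For every 100 UMIs of the cartilage collagen Col2a1 there were 19.9 of Sox9 in mpMSC B, 1.59 in columnar chondrocytes and 1.69 in ECs. Where this Sox9 came from was not tested.

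Sox5 (chr6:143828425-144781977) and Sox6 (chr7:115470872-116038796), the partners of Sox9, were highest at the upper end of the growth plate. Sox5 was 196 CPM (180.4 to 213, 553 UMIs) and 179 CPM (168 to 190.1, 1020 UMIs) in upper cells of Control and Dach1OE, overlapping with 187 and 191 CPM in columnar cells, and 77.2 and 70.0 CPM in hypertrophic cells. Sox6 was 128 CPM (115 to 142, 360 UMIs) and 122 CPM (113 to 132, 697 UMIs) in upper cells and 73.3 and 68.7 CPM in hypertrophic cells. In dpMSC the levels were 12.7 and 10.8 CPM of Sox5 and 5.45 and 5.84 CPM of Sox6, beside 8.02 and 8.20 CPM and 8.96 and 8.52 CPM in ECs. Both genes are long, 954 and 568 kb, and intronic reads were counted, and both overlap annotated antisense genes.

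**Figure D1:**
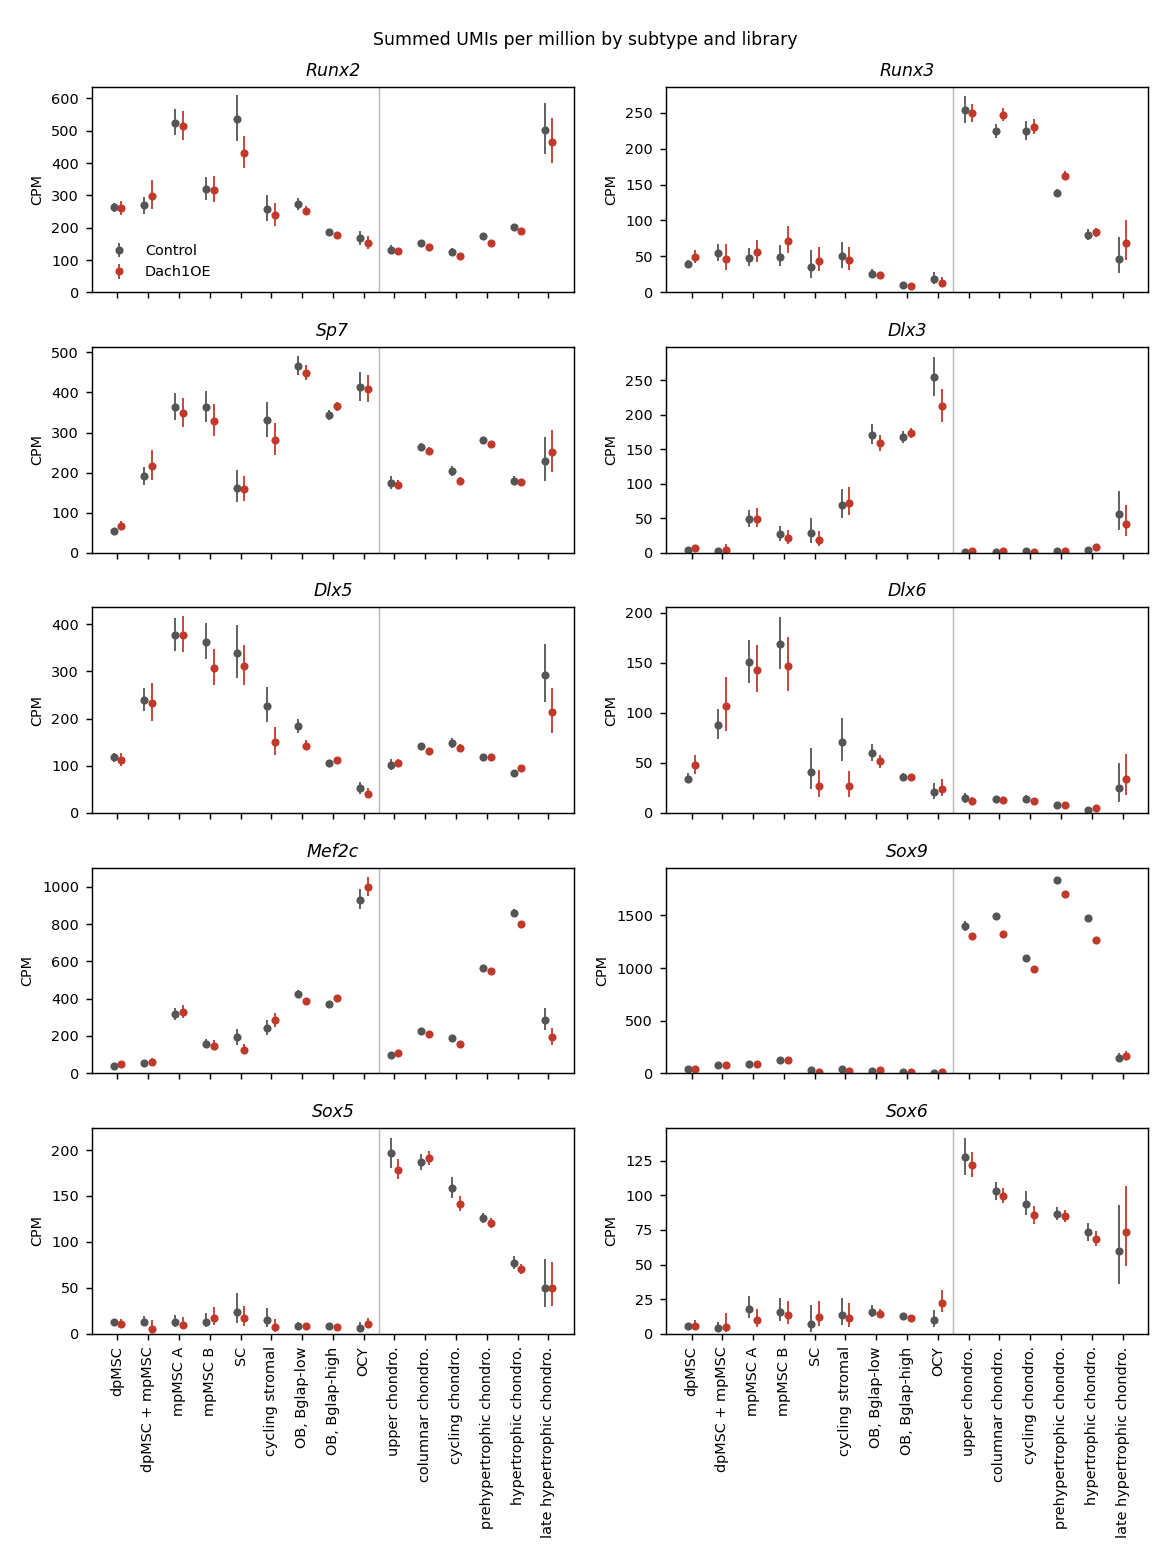
Level (CPM, vertical axes, linear from 0) of each member in the 15 gated subtypes of Control (grey) and Dach1OE (red), with points for a library's value and bars for the 95% Poisson interval. The reader can follow Runx2 at 525 and 516 CPM in mpMSC A, Mef2c at 931 and 999 CPM in OCY and Sox9 at 1839 and 1702 CPM in prehypertrophic chondrocytes of Control and Dach1OE.

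The late hypertrophic gate, with 48 and 56 cells, differed from the hypertrophic gate in most members. Its cells held Col10a1, the collagen of hypertrophic cartilage, at 69555 and 71158 CPM and the collagenase Mmp13 at 21510.4 and 19368 CPM, while the chondrocyte markers summed to 20335 and 18915 CPM against 147426 and 139528 CPM in hypertrophic cells. The late gate asked for a chondrocyte marker score from 0.2 to below 0.5, where hypertrophic cells had at least 0.5. It also asked for a hypertrophic score of at least 0.4 and a Bglap score under 0.3. These marker values thus follow in part from the gate, and its part in the levels of the members was not tested. From hypertrophic to late hypertrophic cells Sox9 fell by 3.35 on the log2 scale in Control and by 2.91 in Dach1OE, to 144 and 169 CPM. Mef2c fell by 1.59 and 2.05. Runx2 was higher by 1.32 (1.07 to 1.55) and 1.29 (1.05 to 1.51), and Dlx5 by 1.80 (1.47 to 2.12) and 1.15 (0.81 to 1.48). The nuclear RNA Malat1 was 549 and 536 CPM in hypertrophic and 1452 and 1218 CPM in late hypertrophic cells. The part of nuclear RNA in the Runx2 difference was not tested. Dlx3 was higher by 4.14 (3.14 to 5.13) and 2.24 (1.36 to 3.02), at 18 and 16 UMIs in the late cells. Genes of bone matrix went both ways in these cells. Bglap was 56.4 and 44.8 CPM and Col1a1 668 and 3135 CPM, below the 1713 and 2751 CPM and 164187 and 174983 CPM of OB with low Bglap. Ibsp (bone sialoprotein) was 7526 and 7709 CPM and Spp1 (osteopontin) 18767 and 22279 CPM, above the 5794 and 4887 CPM and 2534 and 1834 CPM of those OB. Spp1 was 9506 and 11929 CPM and Mmp13 11865 and 10479 CPM in mpMSC A too, but Col10a1 there was 43.6 and 102 CPM. Between the late gate and mpMSC A the intervals of Runx2 (-0.07 and -0.14), Runx3 (-0.04 and 0.29) and Dlx3 (0.22 and -0.23) held 0, whereas Sox9 was higher in the late gate by 0.71 (0.18 to 1.22) and 0.94 (0.45 to 1.41), as were Sox5 (2.01 and 2.37) and Sox6 (1.73 and 2.93). Dlx6 (-2.58 and -2.06), Sp7 (-0.67 and -0.48) and Dlx5 (-0.37 and -0.82) were lower there, and Mef2c stood at -0.16 (-0.50 to 0.18) and -0.77 (-1.15 to -0.40). Cells of the late gate were also split by UMIs of Xist or of Y-linked genes, which mark the sexes. The log2 ratio of Sox9, Dach1OE over Control, was 2.52 in those with Xist and -1.36 in those with Y-linked UMIs. The Sox9 level of the late gate was thus uneven between these sets. The 9 osteoblast markers summed to 10928 and 16629 CPM in late hypertrophic and 7863 and 10299.8 CPM in hypertrophic cells, and their part in the differences of the members was not tested. A shift of all thresholds by 0.05 either way changed the class of 39.6% and 42.9% of these cells and of 69.4% and 62.4% of hypertrophic cells, so the cartilage gates are ranges along a sequence.

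The share of cells with a UMI of each member was taken after thinning every cell to 2000 UMIs, which left out 54 and 68 osteoblasts and 181 and 198 chondrocytes of Control and Dach1OE as too shallow. Sp7 was seen in 58.1% (53.6 to 62.4) and 54.6% (50.9 to 58.3) of OB with low Bglap, and in 85.1% and 82.4% of them before thinning. In ECs, which should lack Sp7, the thinned share was 0.995% and 1.28% and the unthinned share 1.84% and 2.05%, at median depths of 2873 and 2829 UMIs against 5569.5 and 6183 UMIs in those OB. Sp7 in dpMSC (9.70% and 10.8%) was thus above the level of ECs and below that of osteoblasts. Sox9 was seen in 92.6% and 90.7% of prehypertrophic chondrocytes and 2.08% and 2.84% of ECs, and Runx2 in 56.4% and 58.7% of mpMSC A and 3.38% and 2.86% of ECs. Mef2c was seen in 77.0% and 80.9% of OCY and in 1.67% and 2.78% of erythroid cells. Dlx3 was seen in 36.5% and 29.4% of OCY and in 0.981% and 0.360% of prehypertrophic chondrocytes, against 0.223% and 0.148% in ECs. In each library 5 members were seen in at least 10% of osteoblasts and 8 in at least 10% of chondrocytes, beside 12.5% of all genes tested in osteoblasts of Control and 12.5% in those of Dach1OE, and 14.3% and 14.4% in chondrocytes.

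**Figure D2:**
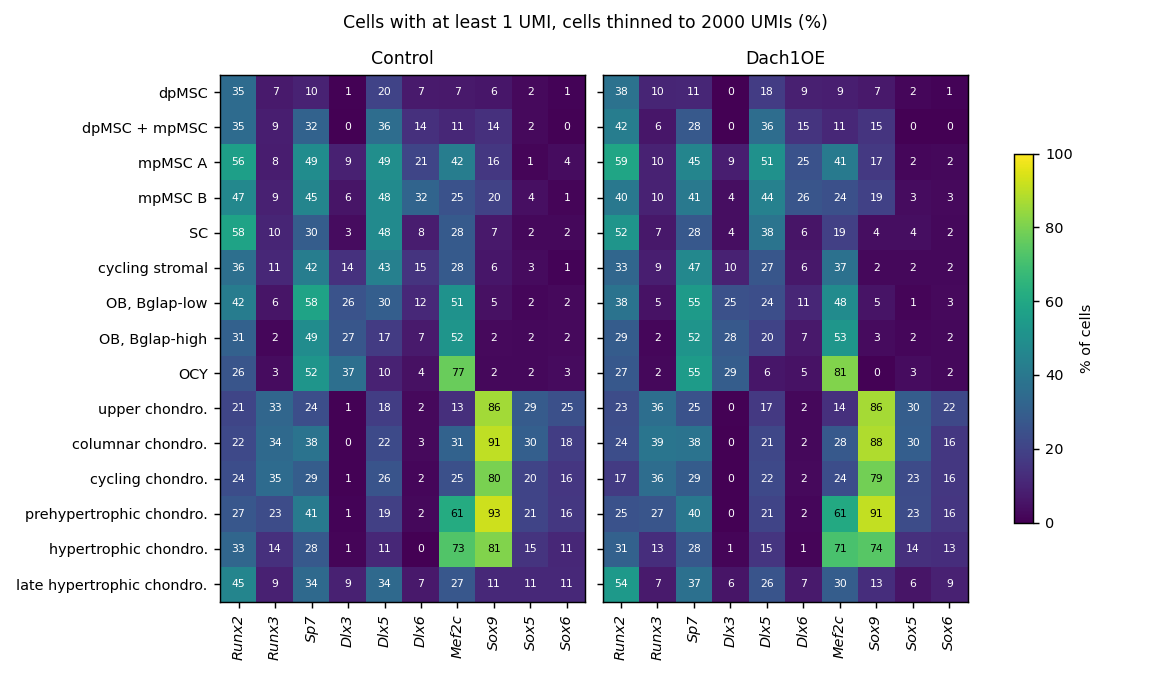
Percent of cells with at least 1 UMI of each member in the 15 subtypes of Control and Dach1OE, each cell thinned to 2000 UMIs, with colour on a scale of percent. Sox9 in prehypertrophic chondrocytes (92.6% and 90.7%) and Mef2c in OCY (77.0% and 80.9%) stand out in both libraries.

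Which members separate bone-forming cells from marrow stroma was asked within each library by setting osteoblasts against dpMSC. Dlx3 was higher in osteoblasts by 5.22 (4.65 to 5.85) on the log2 scale in Control and 4.75 (4.0 to 5.62) in Dach1OE. Mef2c was higher by 3.28 (3.09 to 3.48) and 2.93 (2.66 to 3.20), and Sp7 by 2.78 (2.61 to 2.95) and 2.55 (2.32 to 2.80). The fourth was Sox6 (1.31 and 1.08), at 30 and 13 UMIs in dpMSC. Runx3 (-1.51 and -1.88) and Sox9 (-1.36 and -1.13) were lower, and Runx2 (-0.32 and -0.38), Dlx5 (0.11 and 0.10), Dlx6 (0.29 and -0.25) and Sox5 (-0.64 and -0.45) stayed under 2-fold. So 6 of the 10 members were past 2-fold in each library, 4 higher and 2 lower, beside 52.9% of all genes tested in Control and 53.8% in Dach1OE. Bone matrix genes fill much of the osteoblast libraries (the 9 osteoblast markers summed to 386749 and 373270 CPM in OB with high Bglap), and scaling by trimmed means (TMM) moved every value up by 0.79 and 0.96. On that scale 5 members were higher and 0 lower in each library, beside 17.2% higher and 17.6% lower of all genes in Control and 20.3% and 15.3% in Dach1OE. The fifth member beside Dlx3, Mef2c, Sp7 and Sox6 was Dlx6 (1.08) in Control and Dlx5 (1.06) in Dach1OE. Runx2 turned to 0.46 and 0.57, and Runx3 stood at -0.72 and -0.93.

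Chondrocytes were set against all bone stromal cells in the same way. Sox9 was higher in chondrocytes by 5.50 (5.40 to 5.60) on the log2 scale in Control and 5.68 (5.57 to 5.80) in Dach1OE, Sox5 by 3.77 (3.59 to 3.96) and 3.97 (3.77 to 4.17), Sox6 by 3.07 (2.88 to 3.25) and 2.89 (2.72 to 3.07), and Runx3 by 2.60 (2.48 to 2.72) and 3.02 (2.90 to 3.15). Dlx3 (-5.16 and -5.21) and Dlx6 (-2.45 and -2.33) were lower. The other members were within 2-fold, with Runx2 at -0.60 and -0.61, Sp7 at -0.22 and -0.61, Dlx5 at -0.37 and -0.24 and Mef2c at 0.62 and 0.12. In each library 6 of 10 were past 2-fold, 4 higher and 2 lower, beside 35.7% of all genes tested in Control and 34.9% in Dach1OE. TMM scaling gave the same counts, beside 16.4% higher and 19.3% lower of all genes in Control and 16.3% and 18.5% in Dach1OE.

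Whether the factors differ between the genotypes was first asked of all bone stromal cells together. Dlx3 was 106 and 135 CPM in Control and Dach1OE, a log2 ratio of 0.36 (0.28 to 0.43). Mef2c was 290.4 and 371 CPM (0.35, 0.31 to 0.40), and Sp7 was 284 and 344 CPM (0.28, 0.23 to 0.32). These 3 genes act in the osteoblast and osteocyte. Sox6 was 11.0 and 12.1 CPM (0.14, -0.11 to 0.38) and Sox5 10.4 and 8.81 CPM (-0.23, -0.51 to 0.04), and both intervals held 0. Sox9 was 34.4 and 26.8 CPM (-0.36, -0.51 to -0.21) and Runx3 27.7 and 23.1 CPM (-0.26, -0.43 to -0.10). Runx2 (-0.14, -0.19 to -0.09), Dlx5 (-0.16, -0.23 to -0.10) and Dlx6 (-0.15, -0.26 to -0.03) were slightly lower. Past 1.5-fold were 0 of the 10 members, beside 19.2% of all genes tested. TMM scaling moved all ratios up by 0.22, and on that scale Runx2 (0.08), Dlx5 (0.06) and Dlx6 (0.07) changed sign.

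The mix of subtypes moved with these pooled ratios. Control levels taken at the UMI shares that the subtypes had in Dach1OE gave 0.39 for Dlx3, 0.31 for Mef2c, 0.25 for Sp7, -0.36 for Sox9 and -0.31 for Runx3. These computed values were close to the measured ones, and the widest gap among the 5 genes was 0.0518, for Runx3. For Runx2 and Dlx5 the mix gave -0.06 and -0.05. With every subtype given equal weight, Dlx3 was at -0.11, Sp7 at -0.03 and Runx3 at 0.11, so their direction turned, and Mef2c was at 0.03. A change of the tissue and a change in which cells digestion and depletion released cannot be told apart.

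**Figure D3:**
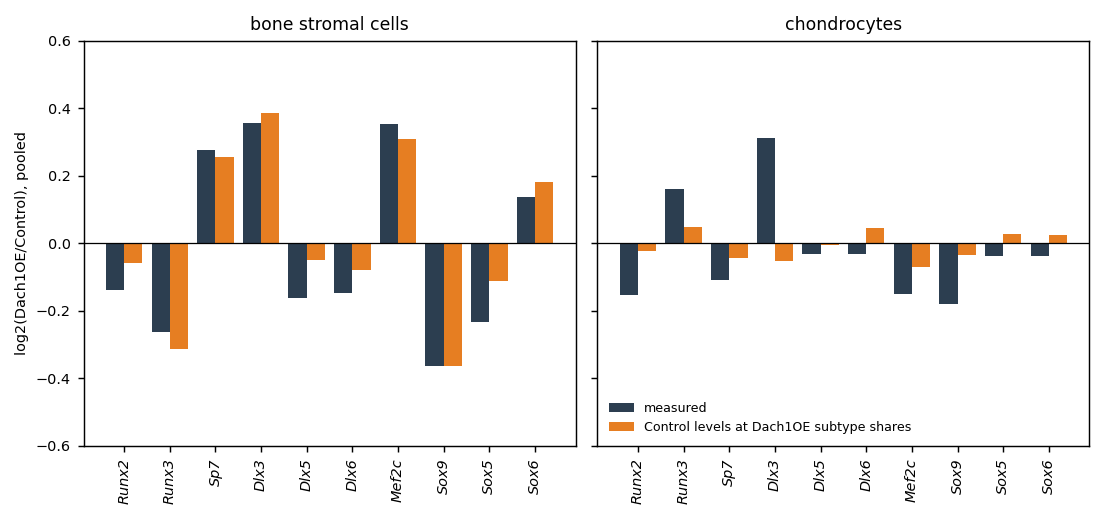
Log2 ratio of Dach1OE over Control (vertical axis) of each member in pooled bone stromal cells and chondrocytes, as measured and as given by Control subtype levels at the subtype shares of Dach1OE. In bone stromal cells the measured and computed values of Dlx3 (0.36 and 0.39), Mef2c (0.35 and 0.31) and Sox9 (-0.36 and -0.36) are close.

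Among all chondrocytes Sox9 was 1561 and 1377 CPM in Control and Dach1OE, a log2 ratio of -0.18 (-0.20 to -0.17). Runx2 was 168 and 151 CPM (-0.15, -0.20 to -0.11), Mef2c 447 and 403 CPM (-0.15, -0.18 to -0.12) and Sp7 244 and 226 CPM (-0.11, -0.15 to -0.07). Runx3 was the higher one, at 168 and 188 CPM (0.16, 0.12 to 0.21), and the intervals of Dlx3, Dlx5, Dlx6, Sox5 and Sox6 held 0. Again 0 of 10 members were past 1.5-fold, beside 11.0% of all genes tested. The mix of subtypes gave -0.04 for Sox9, -0.02 for Runx2 and 0.05 for Runx3, each smaller than the measured ratio.

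Sox9 was lower in Dach1OE in each of the 5 gates from upper to hypertrophic cells, and so were Runx2, Sp7 and Sox6 by CPM. Columnar cells of Control and Dach1OE held 154 and 141 CPM of Runx2, 264 and 254 CPM of Sp7 and 103 and 99.7 CPM of Sox6. In upper cells the level intervals of Runx2, Sp7 and Sox6 overlapped between the libraries. The log2 ratio of Sox9 was -0.10 (-0.16 to -0.04) in upper, -0.17 (-0.21 to -0.14) in columnar, -0.14 (-0.19 to -0.08) in cycling, -0.11 (-0.14 to -0.09) in prehypertrophic and -0.22 (-0.26 to -0.18) in hypertrophic cells. With TMM scaling it was -0.04 to -0.20, and the interval in upper cells held 0 (-0.09 to 0.02). Cells of either sex could be told by UMIs of Xist or of 4 Y-linked genes. In columnar cells those with Xist held 1423 CPM in Control and 1247 CPM in Dach1OE, and those with Y-linked UMIs held 1621 and 1368 CPM. Both Control sets lay above both Dach1OE sets in upper, columnar, prehypertrophic and hypertrophic cells, but not in cycling cells. These sets share their library and are not replicates. The gap between the 2 Control sets of columnar cells was of the same order as that between the libraries. Immediate early genes, a list of 8 that tissue digestion can raise, summed to 3808 and 1685 CPM in columnar and 8808 and 6297 CPM in hypertrophic cells of Control and Dach1OE, and their part in the Sox9 values was not tested. Runx3 was higher in prehypertrophic (0.23 (0.15 to 0.31)) and columnar cells (0.14 (0.06 to 0.22)). In prehypertrophic cells the sets with Xist held 133 and 147 CPM and those with Y-linked UMIs 152 and 170.3 CPM, so the 2 libraries overlapped across the sets. The sets with Xist and with Y-linked UMIs numbered 580 and 424 prehypertrophic cells in Control and 519 and 597 in Dach1OE. Among columnar cells they numbered 542 and 264 in Control and 531 and 487 in Dach1OE. Pooled ratios thus mix the sexes in unlike shares, and the part of this was not tested.

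Over all subtypes, 144 of the 150 pairs of a member and a subtype had at least 20 UMIs, and the median size of their difference was 0.13 on the log2 scale. Intervals left out 0 in 33 pairs, 9 higher and 24 lower in Dach1OE, beside 6.29% higher and 7.31% lower of all pairs of a gene and a subtype. With TMM scaling it was 25 pairs, 9 higher and 16 lower, beside 7.94% and 6.07%. Genes with more UMIs have narrower intervals, and the part of this in the counts was not tested. Past 1.5-fold were 12 pairs, or 8.33%, beside 13.9% of all such pairs, and 5 of the 12 had an interval that left out 0. Runx2, Runx3 and Sp7 were past 1.5-fold in 0 subtypes. Dlx3 in hypertrophic chondrocytes went from 3.20 CPM (1.96 to 4.94, 20 UMIs) to 8.95 CPM (7.12 to 11.1, 82 UMIs), a log2 ratio of 1.48 (0.76 to 2.27). This difference was the widest of the 144 and rests on few UMIs in Control. The cells with Xist held 3.93 CPM (1.96 to 7.03, 11 UMIs) and 8.91 CPM (5.92 to 12.9, 28 UMIs), and those with Y-linked UMIs 1.97 CPM (0.639 to 4.59, 5 UMIs) and 6.64 CPM (4.41 to 9.59, 28 UMIs). Both sets were higher in Dach1OE, and the level intervals of the 2 libraries overlapped narrowly in both. Such overlap is not the interval of a ratio and does not place the difference within counting error. In all hypertrophic cells the 9 osteoblast markers summed to 7863 and 10299.8 CPM and Col1a1 to 533 and 1311 CPM. Col10a1 there was 41278 and 50586 CPM, Mmp13 341 and 479 CPM and Spp1 648 and 978 CPM, whereas Panx3 was 3698 and 3501 CPM. In late hypertrophic cells Dlx3 was 56.4 and 42.2 CPM. The part of osteoblast RNA or of later cells in the Dlx3 value was not tested. Sox6 in OCY went from 9.59 to 22.3 CPM (1.21, 0.22 to 2.30), at 12 and 33 UMIs. Of its sets only that with Xist in Dach1OE was high, at 26.0 CPM (14.2 to 43.7, 14 UMIs), against 7.34 CPM (1.51 to 21.5, 3 UMIs) in the Y-linked set. The other 3 were lower in Dach1OE, namely Dlx6 (-1.42, -2.27 to -0.63) and Dlx5 (-0.59, -0.96 to -0.22) in cycling bone stromal cells (103 and 97 cells) and Mef2c in SC (-0.60, -1.06 to -0.15, 99 and 153 cells). With TMM scaling 11 pairs were past 1.5-fold, beside 13.8% of all such pairs, and Dlx5 in cycling bone stromal cells (-0.53) was no longer among them.

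**Figure D4:**
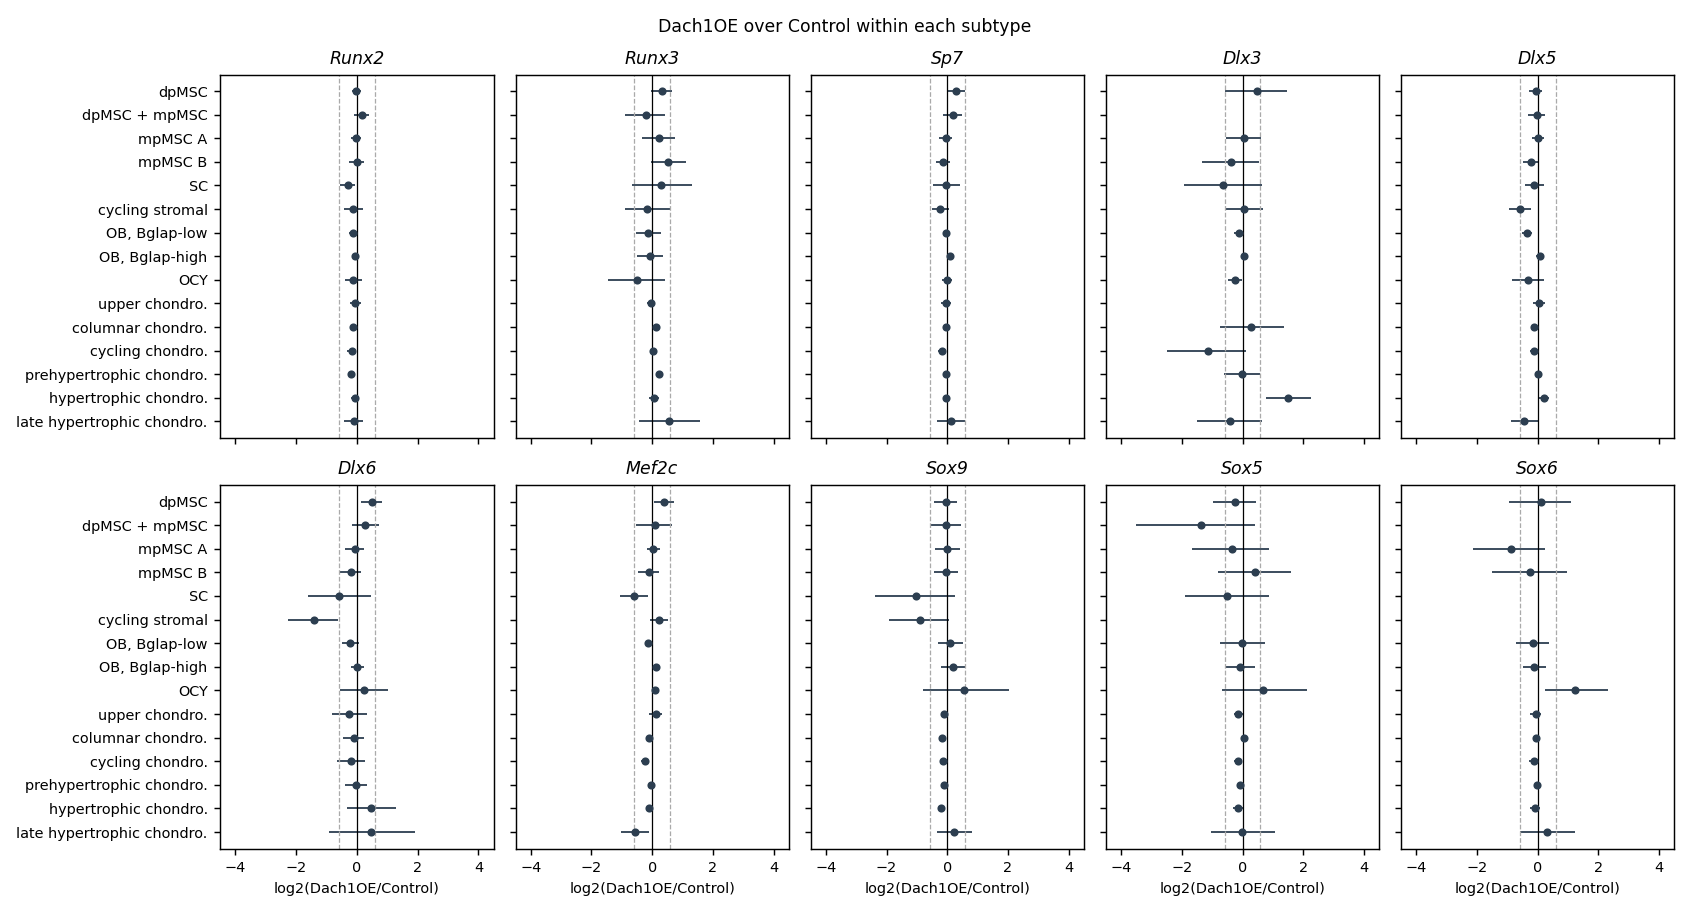
Log2 ratio of Dach1OE over Control (horizontal axis) of each member in every subtype with at least 20 UMIs, where bars are exact 95% intervals for counting error and dashed lines mark 1.5-fold. Points beyond the lines with an interval off 0 are Dlx3 in hypertrophic chondrocytes (1.48), Sox6 in OCY (1.21), Mef2c in SC (-0.60), and Dlx5 (-0.59) and Dlx6 (-1.42) in cycling bone stromal cells.

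Relatives and partners of the members were followed as a list of 69 factors, 66 of them with enough UMIs in bone stromal cells. Past 1.5-fold, 1 was higher and 15 were lower in Dach1OE, beside 3.04% higher and 16.1% lower of all genes tested, or 19.2% in all, with a median log2 ratio of -0.28 beside -0.21 over all genes. With TMM scaling it was 5 higher and 12 lower, beside 6.52% higher and 9.29% lower of all genes, Klf4, Tcf7, Osr1 and Lef1 joining Sox11. The 10 with the widest ratios were Ebf3 (-1.47), Cebpa (-1.40), Pparg (-1.34), which drives adipocyte formation, Ebf1 (-1.13), Twist2 (-1.35), Zbtb16 (-1.17), Alx1 (-1.10), Runx1t1 (-1.05), Barx2 (-1.0) and, as the higher one, Sox11 (1.0, 34 and 70 UMIs), where Alx1 rests on 25 and 12 UMIs. They are pooled ratios, and dpMSC made up 38.0% of bone stromal cells in Control and 18.1% in Dach1OE. The part of this mix in the ratios of this list and of those below was not tested. In chondrocytes 3 of 65 were past that line upward and 4 downward, with and without TMM scaling, beside 2.77% and 8.18% of all genes tested without it and 3.30% and 7.54% with it, and with a median of -0.04 beside -0.02. Of these 7, Hey1 (0.74, 0.38 to 1.10) was higher, and Barx2 (-0.99, -1.56 to -0.44), Pparg (-0.76, -1.03 to -0.49) and Jund (-0.64, -0.66 to -0.62) were lower, with intervals that left out 0. The intervals of the others held 0, namely Osr1 (0.74, -0.25 to 1.81, 13 and 29 UMIs), Scx (0.63, -0.0042 to 1.28, 32 and 66 UMIs) and Twist2 (-0.77, -1.64 to 0.09, 28 and 22 UMIs). Jund is a partner in AP-1, the complex to which several immediate early genes belong. Of 19 genes of bone matrix, mineral and signalling, 0 were higher and 1 lower in bone stromal cells, Tnfsf11 (-1.02), the ligand that drives osteoclast formation, and 0 moved past that line in chondrocytes. Their median log2 ratio was 0.21 in bone stromal cells, beside -0.21 over all genes, and 0.01 in chondrocytes, beside -0.02. With TMM scaling the count in bone stromal cells was 6 higher and 1 lower, the higher ones being Sparc, Col5a2, Pdgfrl, Cgref1, Col11a2 and Col24a1. Of 18 genes of cartilage matrix and signalling, 0 were higher and 2 lower in chondrocytes, Prg4 (-0.98), which encodes lubricin, and Hapln3 (-0.75), and 1 was higher and 3 were lower in bone stromal cells, or 4 higher and 1 lower with TMM scaling. The shares of all genes given above for each cell pool and scaling apply to these counts too.

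Likeness of pattern was described by Pearson's r of log2(CPM + 1) over 30 sums, the 15 subtypes of each of the 2 libraries, which share libraries and are not independent points. Among the members the closest pairs were Sox5 and Sox6 (r = 0.92), Sox9 and Sox5 (0.91), and Runx3 and Sox9 (0.91), so Runx3 kept company with the cartilage factors. Runx2 was closest to Dlx5 (0.77) and Sp7 to Mef2c (0.65), while Runx2 and Sp7 stood at 0.02. Of 11958 genes that reached 10 CPM in any sum, those most like Sox9 were Hspg2 (0.98), Comp (0.97) and Sdc4 (0.97), Comp being also a gating marker. Most like Sox5 were Calml3 (0.97), Mcu (0.97) and Meltf (0.96), and most like Sox6 were Calml3 (0.96), Rtraf (0.96) and Msi2 (0.95). Runx3 was nearest to Uxs1 (0.95), Slc35e3 (0.95) and Efcab1 (0.94). For Dlx3 the nearest were Sema4d (0.96), Creb3l1 (0.95) and Bmp3 (0.93), for Dlx6 Lifr (0.96), Dnm3os (0.95) and Smad6 (0.93) and for Dlx5 Fads3 (0.87), Exoc5 (0.87) and Hacd4 (0.86). Runx2 was nearest to Gm32618 (0.93), Cebpb (0.92) and Dstn (0.92), and Mef2c to Sgms2 (0.90), Ptges3l (0.87) and Kank1 (0.85), of which Sgms2 is a gating marker. Sp7 had the loosest neighbours, Gxylt2 (0.80), Dok5 (0.79) and Lum (0.77).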

How the data were processed

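Single-cell RNA-seq was performed on 2 libraries, 1 per group, each from a pair of mice. Per the file headers, the authors deposited UMI counts per cell and gene made with the BD Rhapsody pipeline 1.11 on GRCm38 with GENCODE vM19 (mm10 per the labels), with intronic reads counted and UMIs corrected by recursive substitution. Strand is not given in the sources used here. Library totals were 143986818 and 166999989 UMIs in Control and Dach1OE.

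Here, cells were filtered and gated on mean scaled marker scores. Gate thresholds were set after the scores were seen, and 20.2% and 21.5% of kept cells stayed ungated. Counts were summed per subtype and library and given as CPM with exact Poisson intervals, ratios of sums with exact conditional binomial intervals and shares of cells with exact binomial intervals. Genes with at least 20 UMIs in the 2 sums together counted as tested. Past 1.5-fold between libraries, or 2-fold between cell classes, counted as called. There were no tests. The ratio script, tested on simulated data, was checked for recovery of known changes. Scrublet marked 6.53% and 6.60% of cells as doublets, which were kept and left out in an alternative. TMM factors came from edgeR 4.0.16, the rest from Python 3.11.15, numpy 2.4.6, scipy 1.17.1 and scanpy 1.11.5. Positions are from GENCODE vM21 on GRCm38.

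The members and gene lists were chosen with earlier results of these data known. Named in the text were all 10 members, the 3 genes most like each, and up to 10 related factors per cell class past 1.5-fold. The rest were given as counts. Alternatives were other scalings, filters, gates, clusters, doublet removal, single sexes and equal weights. Those on Malat1, on 4000 UMIs per cell, on shared barcodes and on subtype shares were chosen after seeing the data.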

Additional observations from a re-analysis of the deposited data

Results flagged for a closer look

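The results below moved in opposite directions in 2 sets of cells, among 164 pairs of a member and a cell class that were looked at, and the differences were not tested, since each set comes from 1 library per genotype. They are log2 ratios of Dach1OE over Control. Between the sexes, Mef2c in OCY was 0.19 in cells with Xist and -0.25 in cells with Y-linked UMIs. Mef2c in prehypertrophic chondrocytes was 0.0798 in cells with Xist and -0.0823 in cells with Y-linked UMIs. For Runx2 in columnar chondrocytes the ratio was -0.32 in cells with Xist and 0.20 in cells with Y-linked UMIs. Runx3 in cycling chondrocytes was -0.19 in cells with Xist and 0.25 in cells with Y-linked UMIs. Sox9 in late hypertrophic chondrocytes was 2.52 in cells with Xist and -1.36 in cells with Y-linked UMIs, from 10 to 50 UMIs in the first set and from 22 to 10 UMIs in the second.

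Between the tissues, Runx3 was -0.26 in bone stromal cells and 0.16 in chondrocytes. Sp7 was 0.28 and -0.11, and Mef2c 0.35 and -0.15. For these 3 members the mix of subtypes alone gave -0.31, 0.25 and 0.31 in bone stromal cells.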

How the results depend on the processing

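No paired analysis was possible because each group had 1 library and the labels give no numbers that pair the animals. No library could be left out for the same reason, so differences between genotypes have no replicate check. Under the alternatives, the count of members past 1.5-fold between genotypes was 0 in bone stromal cells and 0 in chondrocytes each time, and 6 members separated chondrocytes from bone stromal cells each time. For osteoblasts against dpMSC the count was 5 or 6. Without thinning, 6 members in place of 5 reached 10% of osteoblasts. Of 20 pooled ratios, 11 moved beyond their interval with equal weights of the subtypes, 10 with TMM scaling, 13 in cells with Y-linked UMIs and 9 in cells with Xist, 3 under 10% mitochondrial UMIs, 3 in cells of at least 4000 UMIs and 1 with graph clusters, and the cause was not tested. In cells of at least 4000 UMIs, a choice made after seeing the data, the bone stromal ratios were 0.09 for Dlx3, 0.16 for Mef2c and 0.12 for Sp7. Over all these choices the log2 ratio of Dach1OE over Control in bone stromal cells ran from -0.11 to 0.57 for Dlx3 and from -0.03 to 0.50 for Sp7, and equal weights of the subtypes gave both negative values. Sox9 in chondrocytes stayed between -0.21 and -0.14. Few UMIs stand behind Dlx3 in most cartilage gates and behind Sox5 and Sox6 in most bone gates, where intervals are wide.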

Other observations

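Members were also seen outside bone and cartilage. Mef2c, which also acts in vessel development, was 171 and 214 CPM in ECs of Control and Dach1OE, a log2 ratio of 0.33 (0.28 to 0.39), and 415 and 549 CPM in smooth muscle cells or pericytes (0.41, 0.30 to 0.51). In ECs the ratio was 0.19 in cells with Xist and 0.50 in cells with Y-linked UMIs, and in smooth muscle cells or pericytes it was 0.44 and 0.43. Both sets moved the same way in both cell types. Dlx5 in smooth muscle cells or pericytes was 44.3 and 75.4 CPM (0.77, 0.46 to 1.08). Sp7 (0.57, 0.15 to 1.0) and Sox9 (0.61, 0.03 to 1.21) were higher in these cells too, and the osteoblast markers summed to 3806 and 4688 CPM and the chondrocyte markers to 1242 and 1839.7 CPM. Their part in the Dlx5 value was not tested. Sox5 there was 69.4 and 71.9 CPM and Sox6 47.4 and 51.9 CPM, with intervals of the ratio that held 0. Sox6, which also acts in red cell maturation, was 94.0 and 84.8 CPM in erythroid cells, against 103 and 99.7 CPM in columnar chondrocytes. Sox9 in fibroblast or tendon cells was 69.7 and 79.0 CPM. Mef2c was 191 and 159.6 CPM in megakaryocytes or basophils.

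Malat1, a nuclear RNA, took over 1% of UMIs in 97 bone stromal cells of both libraries together. Runx2 in these cells was 874 CPM, against 239.6 CPM in the rest, a log2 difference of 1.87 (1.61 to 2.11). Of the other members, Runx3 (1.76, 0.85 to 2.54), Sox9 (1.37, 0.42 to 2.18) and Sox5 (1.79, 0.16 to 3.02) were also higher, Dlx3 (-2.21, -4.08 to -0.85) and Mef2c (-0.53, -1.05 to -0.05) were lower, and the intervals of Sp7, Dlx5, Dlx6 and Sox6 held 0. The Malat1-rich cells held 4 to 40 UMIs of each of these other members. Of these cells 40 were dpMSC and 25 mpMSC A, and within these classes Runx2 was higher by 1.55 (1.03 to 2.03) and 1.54 (1.12 to 1.94), the intervals of Sox9 and Mef2c held 0 and Dlx3 had 0 UMIs. Of the rest, Runx3 (1.64, 0.18 to 2.78) and Sox5 (2.46, 0.16 to 4.05) in dpMSC and Sox6 (2.64, 0.28 to 4.32) in mpMSC A were higher and Dlx5 (-1.48, -3.11 to -0.25) in mpMSC A lower, on 3 to 6 UMIs each. The part of the mix of classes in the pooled differences was not tested.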
